A study of Homo sapiens with 8 samples.

Results

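The keratins described here are 10 genes named for their place in the mammary epithelium and its stress responses, namely KRT5, KRT14 and KRT17 (basal), KRT6B and KRT16 (stress or wound), KRT7 (simple epithelium), KRT8, KRT18 and KRT19 (luminal) and KRT81 (hair type). They were chosen by name, as the rows of the deposited count table that carry these symbols. Each symbol had 1 row, so the set holds 10 of the 56 keratin genes and 10 of the 55679 gene identifiers in the table. RNA was sequenced from 2 human triple-negative breast cancer lines, MDAMB468 and BT549, as 8 libraries with 1 library per condition. In each line, parental cells and CE cells were taken either without drug (control) or after 1 μM Acetalax for 6 h. Acetalax is oxyphenisatin acetate, a compound once used as a laxative. The CE (chronic exposure) cells are 1 population per line, selected in rising Acetalax, held at 40 μM and then kept without drug for 2 weeks, so a CE library that is labelled control had also met the drug before. All 8 conditions were grown in the same serum-containing medium, and no condition has a second culture.

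Keratins are the intermediate filament proteins of epithelial cells. A filament is built from heterodimers of 1 acidic type I chain (KRT14, KRT16, KRT17, KRT18 and KRT19 among these genes) and 1 basic type II chain (KRT5, KRT6B, KRT7, KRT8 and KRT81). In the breast, KRT5 with KRT14 and KRT17 mark the basal layer, and KRT8 with KRT18 and KRT19 mark the luminal layer, while KRT6 and KRT16 are switched on in skin wounds and KRT81 belongs to hair. Pathologists use the basal group to define basal-like tumours, and cells that take on a mesenchymal character usually lose keratins and gain vimentin.

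The total count on genes ranged from 42261122 to 54241728 per library, at which 1 CPM (the count scaled by the library total on genes) is 42.3 to 54.2 counts. The labels name both as breast cancer cells, and their markers of epithelial and mesenchymal state differed. The summed level of 6 epithelial markers was 1746 to 1928 CPM in the MDAMB468 libraries and 3.95 to 6.78 CPM in the BT549 libraries, and EPCAM, their defining surface marker, was at 409 to 438 CPM against 0.0369 to 0.189 CPM. The sum of 6 mesenchymal markers was 28.0 to 80.4 CPM in MDAMB468, where CDH2 was at 0 counts, and 4651 to 6362 CPM in BT549, where vimentin (VIM) alone was at 864 to 1414 CPM. Mitochondrial genes took 7.89% to 10.0% of the counts in MDAMB468 and 4.00% to 7.32% in BT549, lowest in the BT549 CE Acetalax library. On total counts, the median log2 ratio of the 11135 genes that averaged 5 CPM or more was -0.17 for Acetalax in BT549 CE cells and -0.10 in BT549 parental cells, against -0.03 in both with TMM scaling, and ratios in those pairs should be read against these medians.

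The close kinship of some of these genes limits how well reads can be assigned, and a stretch of coding sequence shows how close it is. It was chosen because KRT6B and its neighbour KRT6A are the nearest of the pairs whose coding sequences were aligned. KRT6C and KRT86 were not aligned. Each line gives 60 bases, 5′ to 3′ on the coding strand, at coding positions 663 to 722, read from the hg19 genome, with capitals where the sequences differ. KRT6B lies there at chr12:52844223-52844282 and KRT6A at chr12:52885339-52885398, both on the minus strand.
KRT6B: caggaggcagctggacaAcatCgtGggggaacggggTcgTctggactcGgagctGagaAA
KRT6A: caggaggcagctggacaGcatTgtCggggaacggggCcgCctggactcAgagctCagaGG
Over the whole coding sequence of 1692 bases these genes differ at 42 positions, an identity of 97.5%. The stretch differs at 9 of its 60 bases, so it is more divergent than the coding sequence as a whole. Among the type I genes that lie together on chromosome 17, the coding identity is 87.6% between KRT14 and KRT16, 83.8% between KRT14 and KRT17 and 78.1% between KRT16 and KRT17.

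A 101-base read that falls wholly in sequence shared with another transcript may not be placed, and the counting used here takes only reads with a single place. The share of 101-base windows of the transcript that recur in another gene was 30.1% for KRT81 (in KRT86 and KRT87P), 24.1% for KRT6B (in KRT6C and KRT6A), 7.18% for KRT8 (in its pseudogenes), 7.00% for KRT16 and 5.92% for KRT14. It was 1.59% for KRT5 and 0.282% for KRT17, and no window of KRT7, KRT18 or KRT19 recurred. In hg19, KRT5 (52908359 to 52914471), KRT6B (52840435 to 52845910), KRT7 (52626304 to 52645970), KRT8 (53290977 to 53343738), KRT18 (53342655 to 53346685) and KRT81 (52679697 to 52685318) lie on chromosome 12. KRT14 (39738531 to 39743173), KRT16 (39766030 to 39772151), KRT17 (39775689 to 39781094) and KRT19 (39679869 to 39684560) lie on chromosome 17. All are on the minus strand except KRT7 and KRT18. KRT8 and KRT18 lie head to head, and 525 bases of annotated exon are shared on opposite strands. The strand setting of the counting was not given in the sources used here, so reads from these bases cannot be assigned to 1 gene with certainty. The same holds for 314 exon bases of KRT7, mostly shared with its antisense gene.

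The first comparison asked how the keratins differ between the lines. Every member was higher in MDAMB468 than in BT549 in all 4 conditions (parental and CE, control and Acetalax). Members at or near 0 counts in BT549 had to be higher in MDAMB468, so this order is a description only. KRT5, the basal type II keratin, was at 1027, 1827, 935 and 1618 CPM in MDAMB468 parental control, parental Acetalax, CE control and CE Acetalax cells, and had 3, 0, 1 and 4 counts in the BT549 libraries in the same order. The ratio of the parental control libraries was 14460 (95% exact binomial interval 4948 to 70120). KRT6B was at 11.5, 74.4, 4.64 and 24.8 CPM in MDAMB468 and at 0 counts in every BT549 library, so it was at least 162-fold higher in parental control MDAMB468 cells when 3 counts are taken as the floor of a library. KRT16, its usual type I partner, was at 88.6, 133, 79.9 and 145 CPM in MDAMB468 and had 1, 0, 2 and 0 counts in BT549.

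The other basal and the luminal keratins were low in BT549 but not all at the floor. KRT17 was at 374, 1217, 270.2 and 1128 CPM in MDAMB468 and had 7, 10, 12 and 14 counts in BT549. KRT14 was at 56.6, 64.6, 5.10 and 5.89 CPM in MDAMB468 and had 25, 8, 1 and 2 counts in BT549, a ratio of 95.6 (64.6 to 148) between the parental control libraries. KRT8 was at 2276, 2343, 3218 and 4033 CPM in MDAMB468 and at 1.25, 0.851, 34.4 and 22.2 CPM in BT549. Its ratio was 1815 (1388 to 2423) between parental control cells and 93.6 (89.4 to 98.0) between CE control cells. KRT18, the type I partner of KRT8, was at 559, 589, 830.2 and 1181 CPM in MDAMB468 and at 6.67, 4.18, 47.9 and 27.4 CPM in BT549. KRT19, the luminal type I keratin that lacks a tail domain, was at 2392, 1525, 2719 and 1905 CPM in MDAMB468 and at 0.639, 0.368, 4.15 and 1.44 CPM in BT549.

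KRT7 was the highest of these genes in every BT549 library, though KRT8 and KRT18 reached 34.4 and 47.9 CPM in CE control cells. It was at 1129, 1394, 1261 and 1566 CPM in MDAMB468 and at 259.9, 258, 88.9 and 106 CPM in BT549, a ratio of 4.34 (4.26 to 4.43) between parental control libraries and of 14.2 (13.8 to 14.6) between CE control libraries. KRT81 was at 299, 567, 749 and 1394 CPM in MDAMB468 and at 3.03, 2.55, 0.424 and 0.554 CPM in BT549, a ratio of 98.7 (83.0 to 118) between parental control cells. The intervals cover counting error only, since reads from amplified libraries are not independent molecules. They reached at most 14.7% from the value for a member in MDAMB468, and at most 3.36% for the 8 members other than KRT6B and KRT14, whereas a BT549 value that rests on a few counts is uncertain by several fold.

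In edgeR's quasi-likelihood test over all 19693 genes tested (filterByExpr filter, TMM scaling, Benjamini-Hochberg adjustment, threshold 0.05), with the 4 conditions as blocks, all 10 members were called lower in BT549, where 29.5% of the genes tested were called lower and 56.8% were called in either direction. Members that pass the filter through MDAMB468 alone had to differ, so this count describes the genes and supports nothing. For KRT7 the log2 fold change was -2.90 (standard error 0.34, adjusted p = 0.000689 in edgeR), and for KRT18 it was -5.60 (0.59, adjusted p = 0.000457). The p-values of this and the following fits measure the spread between pairs of libraries of the same 2 lines, not between independent cultures. In bulk RNA, fewer cells that express a keratin and less keratin RNA per cell cannot be told apart.

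**Figure D1:**
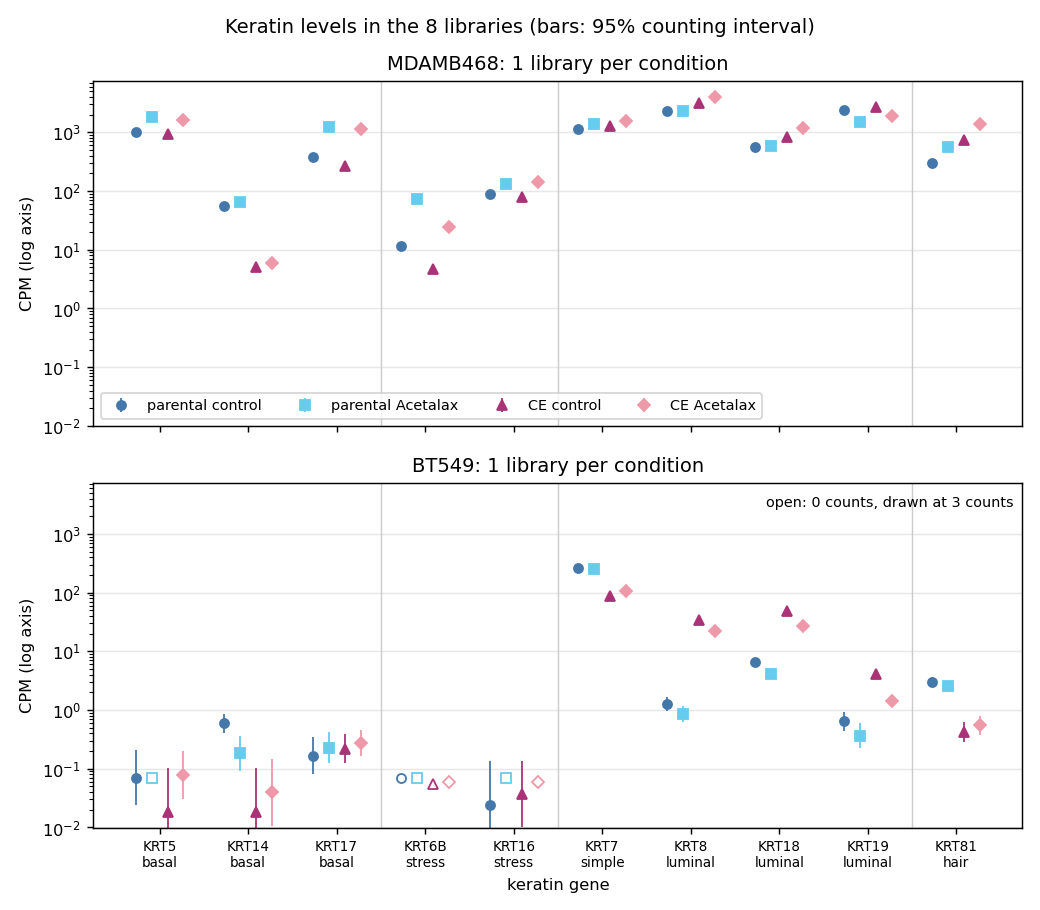
Level of each keratin in CPM on a log axis, in MDAMB468 (top) and BT549 (bottom), with 1 point per library and its 95% counting interval. Open points are libraries with 0 counts, drawn at 3 counts. KRT7 is above 88 CPM in every library, KRT6B is at 0 in all 4 BT549 libraries, and KRT8, KRT18 and KRT19 are higher in both BT549 CE libraries than in both parental ones.

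Per length, the members made up most of the keratin RNA of MDAMB468 and about 41% to 62% of that of BT549. FPKM (CPM per kilobase of merged exons) was summed over all keratin genes, and the members held 92.4%, 88.0%, 93.6% and 90.7% of it in the MDAMB468 libraries, in the order used above, and 62.1%, 60.05%, 47.2% and 41.2% in BT549. Of all counts on genes they took 0.821% to 1.30% in MDAMB468 and 0.0158% to 0.0272% in BT549. In MDAMB468 parental control cells the order by FPKM was KRT19 (1024), KRT8 (331), KRT7 (282), KRT5 (248), KRT18 (182), KRT81 (155), KRT17 (125), KRT16 (35.8), KRT14 (25.1) and KRT6B (5.00). With the longest transcript as the length, KRT81 and KRT17 changed places and the rest of this order did not. Neighbours in the order differ by more than counting error, but they have no replicate to set the spread between cultures.

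The make-up of the keratin pool differed between conditions. KRT19 held 39.2% of keratin FPKM in MDAMB468 parental control cells and 36.8% in CE control cells, and 20.6% and 19.8% after Acetalax. KRT17 held 4.78% and 2.85% in the same control libraries and 12.8% and 9.13% after Acetalax. In BT549, KRT7 held 58.0% and 57.3% in parental control and Acetalax cells and 23.3% and 27.4% in CE cells, and KRT18 held 1.94% and 1.21% in parental and 16.4% and 9.29% in CE cells. Most of the rest in BT549 was KRT80, a type II keratin that was at 121 to 147 CPM there. The type I to type II ratio over all keratin genes, in FPKM, was 1.37, 0.971, 1.15 and 0.851 in MDAMB468 and 0.179, 0.198, 0.552 and 0.507 in BT549. It was lower after Acetalax in both MDAMB468 pairs and higher in CE than in parental BT549 cells, where type II chains exceeded type I chains in all 4 libraries. These ratios depend on the gene lengths used. With the longest transcript they were 1.10, 0.818, 0.969 and 0.745 in MDAMB468, where CE control cells thus crossed 1, and 0.0957, 0.102, 0.411 and 0.336 in BT549, and both differences between conditions kept their direction.

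**Figure D2:**
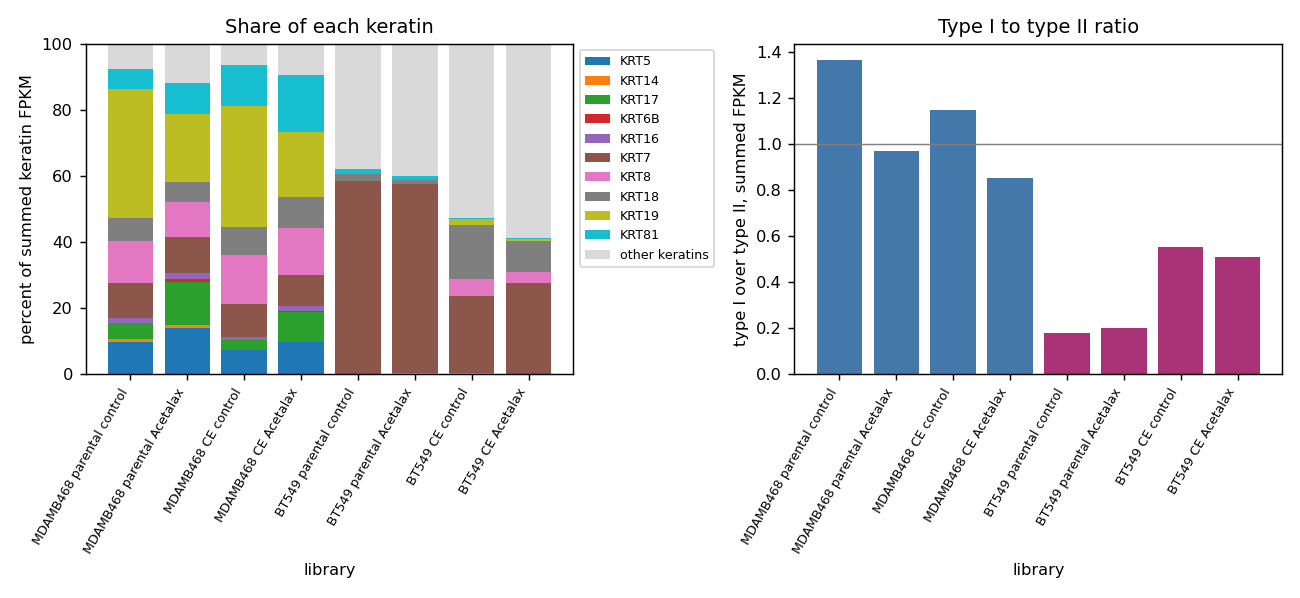
Left, share of each member in the summed FPKM of all keratin genes (percent), with other keratins in grey, in each of the 8 libraries. Right, ratio of type I to type II keratin FPKM, with MDAMB468 in blue and BT549 in purple and a line at 1. KRT19 takes the largest share in all 4 MDAMB468 libraries (with the longest transcript as the length, KRT8 does in CE Acetalax cells) and KRT7 the largest of the members in all 4 BT549 libraries.

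The second comparison asked what 6 h of Acetalax did to the keratins. In MDAMB468, 5 members rose and 1 fell, in an edgeR fit with 4 background intercepts and an Acetalax term per line, in which the parental and the CE pair of a line act as the 2 replicates. In that line 6.64% of the genes tested were called in either direction. The basal keratins KRT5 and KRT17, the stress keratins KRT6B and KRT16 and the hair keratin KRT81 rose, and the luminal keratin KRT19 fell. KRT7, KRT8, KRT14 and KRT18 did not pass the threshold.

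KRT6B, a keratin of activated epidermis, went from 560 to 3613 counts in parental cells and from 205 to 1178 counts in CE cells, which are 6.46-fold (5.91 to 7.07) and 5.33-fold (4.595 to 6.22). Its log2 fold change was 2.62 (standard error 0.19, adjusted p = 0.00310 in edgeR), and it was not called in DESeq2 (adjusted p = 0.744). KRT17, which is induced with KRT6 and KRT16 in wounded skin, was 3.25-fold (3.20 to 3.30) and 4.17-fold (4.09 to 4.26) higher after the drug, with a log2 fold change of 1.94 (0.11, adjusted p = 0.00134 in edgeR). Both were past 2-fold in both MDAMB468 backgrounds, where 6.07% (parental) and 2.88% (CE) of those 11135 genes were past 2-fold in either direction (on the scale of log2(CPM + 0.5)), and no other member was.

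KRT81 was 1.90-fold (1.86 to 1.94) higher in parental and 1.86-fold (1.84 to 1.89) higher in CE cells, with a log2 fold change of 0.97 (0.12, adjusted p = 0.00666 in edgeR). Its close relative KRT86 was at 4.92, 4.14, 4.49 and 4.52 CPM in the 4 MDAMB468 libraries and was not called for Acetalax in that line. KRT5 was 1.78-fold (1.76 to 1.80) and 1.73-fold (1.71 to 1.75) higher, with a log2 fold change of 0.87 (0.17, adjusted p = 0.0294 in edgeR). With the filter set at a mean of 1 CPM its adjusted p was 0.0531. KRT16 was 1.503-fold (1.45 to 1.56) and 1.81-fold (1.74 to 1.89) higher, with a log2 fold change of 0.79 (0.14, adjusted p = 0.0240 in edgeR). In each of these 5 genes, both Acetalax libraries were above both control libraries, except that for KRT81 the parental Acetalax library lay below the CE control library. The genes were called on the same libraries, so this order is a description only.

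KRT19 was the member that fell in MDAMB468. It was 0.637 of the control (0.631 to 0.643) in parental cells and 0.701 of it (0.695 to 0.707) in CE cells, with a log2 fold change of -0.52 (0.10, adjusted p = 0.0268 in edgeR). KRT14, the usual type I partner of KRT5, was 1.14-fold (1.08 to 1.20) and 1.16-fold (0.966 to 1.38) of the control, and its log2 fold change of 0.26 (0.20) had an adjusted p of 0.457 in edgeR. The FPKM ratio of KRT5 to KRT14 was 9.90 in parental control and 15.4 in parental Acetalax cells. KRT8 and KRT18 were within 6% of the control in parental cells (1.03-fold and 1.05-fold) and were 1.25-fold (1.25 to 1.26) and 1.42-fold (1.40 to 1.44) of it in CE cells. Their log2 fold changes were 0.25 (0.08, adjusted p = 0.123 in edgeR) and 0.36 (0.12, adjusted p = 0.116). KRT7 was 1.24-fold of the control in both backgrounds (1.22 to 1.25 and 1.23 to 1.26), with a log2 fold change of 0.37 (0.10, adjusted p = 0.0610 in edgeR).

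In BT549, 3 members were called lower after Acetalax and none higher, where 13.0% of the genes tested were called in either direction. All 3 are luminal. KRT19 had 27 counts in parental control, 16 in parental Acetalax, 225 in CE control and 73 in CE Acetalax cells. Its ratio was 0.576 (0.290 to 1.11) in parental and 0.348 (0.264 to 0.455) in CE cells, and its log2 fold change was -1.20 (0.15, adjusted p = 0.0125 in edgeR). KRT18, at 282, 182, 2600 and 1388 counts, was 0.627 (0.518 to 0.758) and 0.573 (0.536 to 0.611) of the control, with a log2 fold change of -0.62 (0.13, adjusted p = 0.0263). KRT8, at 53, 37, 1865 and 1125 counts, was 0.678 (0.433 to 1.05) and 0.647 (0.600 to 0.697) of the control, with a log2 fold change of -0.47 (0.10, adjusted p = 0.0303 in edgeR, and 0.0763 in DESeq2). All 3 were lower after the drug in both backgrounds, by more than counting error in CE cells for each and in parental cells for KRT18. On the scale of log2(CPM + 0.5), KRT19 in CE cells was the single member past 2-fold in these pairs. Of those genes, 12.8% were past 2-fold in CE cells, against 2.25% and no member in parental cells. Without the added 0.5 CPM, KRT14 was past 2-fold in parental cells, from 25 to 8 counts (0.311, 0.121 to 0.711).

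The other members showed no call in BT549. KRT7, the most abundant of them there, was 0.993 of the control (0.967 to 1.02) in parental and 1.19-fold (1.14 to 1.24) in CE cells, with a log2 fold change of 0.24 (0.10, adjusted p = 0.142 in edgeR). KRT81 was 0.843 (0.648 to 1.10) and 1.31 (0.725 to 2.37) of the control. The basal keratin KRT14 fell beyond counting error in parental cells, from 25 to 8 counts, which is 0.311 (0.121 to 0.711) of the control. It had 1 and 2 counts in CE control and CE Acetalax cells, and its log2 fold change was -1.25 (0.52, adjusted p = 0.149 in edgeR). KRT17 was 1.39 (0.477 to 4.30) and 1.25 (0.537 to 2.96) of the control, and these few counts cannot show whether it moved as in MDAMB468. KRT5, KRT6B and KRT16 were at or near 0 counts and give no ratio.

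The difference of the Acetalax change between the lines was tested itself. KRT8 and KRT18 were the members for which it passed the threshold, where 1.78% of all genes did. The change in BT549 minus that in MDAMB468 was -0.72 (0.13, adjusted p = 0.0462 in edgeR) for KRT8 and -0.98 (0.17, adjusted p = 0.0426) for KRT18. KRT8 lost this call in 3 of 5 alternatives (adjusted p up to 0.0664) and KRT18 in 1 of 5 (0.0672, with the filter at a mean of 1 CPM). It was -0.93 (0.21, adjusted p = 0.0770) for KRT81, -1.44 (0.33, adjusted p = 0.0814) for KRT17 and -0.68 (0.18, adjusted p = 0.119) for KRT19, so the larger rises of KRT17 and KRT81 in MDAMB468 were not shown to differ from BT549. When 1 Acetalax term was fitted over all 4 backgrounds, KRT6B and KRT17 rose and KRT19 fell, where 5.00% of the genes tested were called. KRT6B had 0 counts in every BT549 library, so its call rests on the MDAMB468 pairs alone. KRT17 had only 7 to 14 counts in the BT549 libraries. The adjusted p in edgeR was 0.0276 for KRT6B, 0.0291 for KRT17 and 0.0431 for KRT19. Without the MDAMB468 parental pair none of the 3 was called, and KRT19 lost its call whichever of the 4 pairs was left out.

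**Figure D3:**
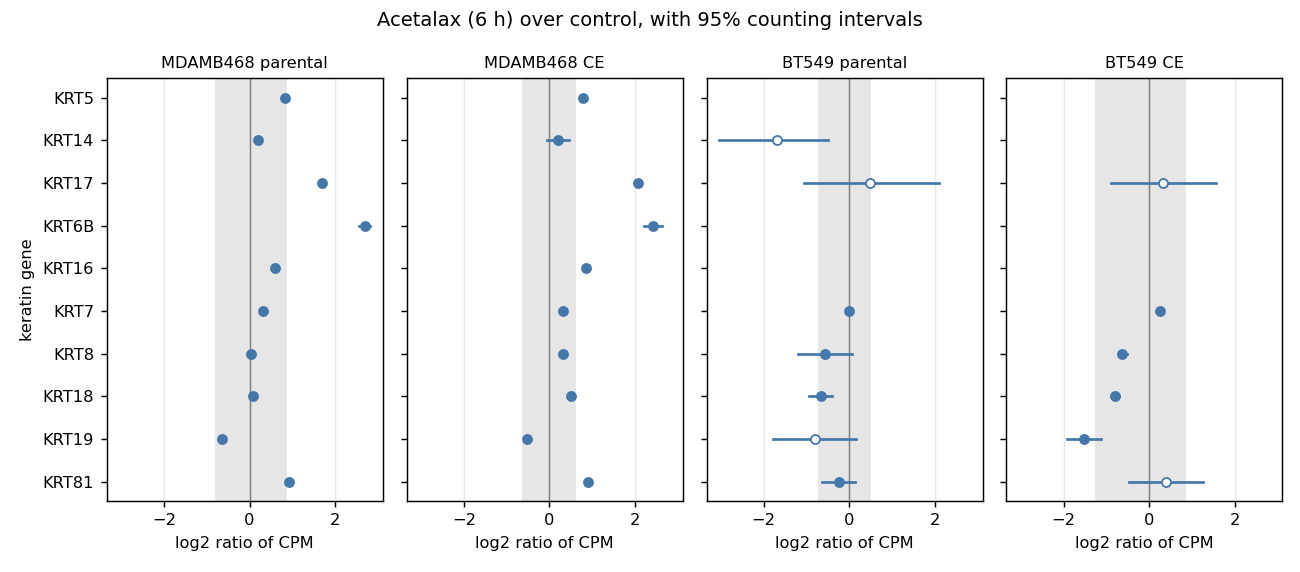
Log2 ratio of CPM after 6 h of Acetalax over control for each keratin in the 4 backgrounds. Lines are 95% counting intervals, open points have fewer than 30 counts in 1 of the libraries, genes with 3 counts or fewer in either library are left out, and grey spans the 5th to the 95th percentile of 11135 genes. KRT6B, KRT17 and KRT81 lie right of the grey span in both MDAMB468 panels, and KRT19 lies left of 0 in all 4 panels.

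The third comparison asked how CE cells differ from parental cells. In MDAMB468, 3 members were higher in CE cells and 2 lower, where 4.42% of the genes tested were called. In this fit the control pair and the Acetalax pair act as the replicates, and both come from the same 2 cell populations. KRT14 fell most. It went from 56.6 to 5.10 CPM in control cells and from 64.6 to 5.89 CPM in Acetalax-treated cells, which makes parental cells 11.1-fold (9.69 to 12.8) and 10.97-fold (9.70 to 12.4) higher. The log2 fold change was -3.50 (0.21, adjusted p = 0.000304 in edgeR). KRT5, its partner, was 0.911 (0.899 to 0.923) and 0.886 (0.877 to 0.894) of the parental level, and the FPKM ratio of KRT5 to KRT14 went from 9.90 to 100.1 in control cells. These 2 basal keratins thus changed unequally.

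KRT6B was 0.403 (0.342 to 0.474) and 0.333 (0.311 to 0.356) of the parental level, with a log2 fold change of -1.50 (0.18, adjusted p = 0.00706 in edgeR, and 0.972 in DESeq2). KRT6A, which differs from it at few positions, went the other way, with a log2 fold change of 1.10 (0.18, adjusted p = 0.0208 in edgeR), and was at 4.63, 24.7, 10.6 and 52.7 CPM in MDAMB468. KRT81 was 2.504-fold (2.455 to 2.553) and 2.46-fold (2.42 to 2.49) of the parental level, with a log2 fold change of 1.27 (0.12, adjusted p = 0.00131 in edgeR). The luminal pair rose too. KRT8 was 1.41-fold (1.40 to 1.43) and 1.72-fold (1.71 to 1.73), and KRT18 was 1.48-fold (1.46 to 1.51) and 2.00-fold (1.98 to 2.03) of the parental level. Their log2 fold changes were 0.60 (0.08, adjusted p = 0.00792) and 0.75 (0.12, adjusted p = 0.0139) in edgeR. KRT5, KRT7, KRT16, KRT17 and KRT19 had no call in this line, with log2 fold changes from -0.33 to 0.21. In the control pair, KRT6B, KRT14 and KRT81 were past 2-fold, where 2.60% of genes were.

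In BT549, 3 members were higher in CE cells and 3 lower, where 22.4% of the genes tested were called. KRT8 rose from 1.25 (0.959 to 1.64) to 34.4 (32.9 to 36.0) CPM in control cells, 27.4-fold (20.9 to 36.7), and from 0.851 to 22.2 CPM in Acetalax-treated cells, 26.1-fold (18.9 to 37.3). Its log2 fold change was 4.83 (0.11, adjusted p = 3.30e-07 in edgeR). KRT18 rose 7.18-fold (6.35 to 8.15) and 6.56-fold (5.62 to 7.70), with a log2 fold change of 2.87 (0.13, adjusted p = 9.76e-06). KRT19 rose 6.49-fold (4.34 to 10.1) and 3.92-fold (2.26 to 7.22), with a log2 fold change of 2.498 (0.16, adjusted p = 4.82e-05 in edgeR). All 3 remained far below MDAMB468, and the FPKM ratio of KRT8 to KRT18 was 0.320 in BT549 CE control cells against 1.73 in MDAMB468 CE control cells. The KRT8 pseudogenes, 50 rows of the table, held 405 and 445 counts in BT549 parental and CE control cells, so the rise lay on the KRT8 row. KRT5, KRT6B, KRT14 and KRT16 had 4 counts or fewer in the CE libraries, and KRT17 had 12 and 14 counts there against 7 and 10 in parental cells (log2 fold change 0.43, adjusted p = 0.517 in edgeR).

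KRT7 went the opposite way from the other luminal and simple keratins. Parental cells were 2.92-fold (2.83 to 3.03) higher in control and 2.44-fold (2.36 to 2.52) higher in Acetalax-treated cells, with a log2 fold change of -1.33 (0.10, adjusted p = 9.22e-05 in edgeR). KRT81 had 128 and 111 counts in parental and 23 and 28 in CE cells, so it was 7.14-fold (4.56 to 11.7) and 4.61-fold (3.02 to 7.25) higher in parental cells, with a log2 fold change of -2.42 (0.18, adjusted p = 9.47e-05 in edgeR). KRT14 was called lower in CE cells as well (adjusted p = 0.00532 in edgeR), from 25 to 1 and from 8 to 2 counts. The ratio of parental to CE cells was 32.1 (5.25 to 1317) in control and 4.65 (0.928 to 45.0) in Acetalax-treated cells, so its size is poorly known. In the control pair, KRT7, KRT8, KRT14, KRT18, KRT19 and KRT81 were past 2-fold, where 9.95% of genes were. The summed epithelial markers were at 4.00 CPM in BT549 parental control and 6.78 CPM in CE control cells, with 3 of the 6 called higher and 2 lower in CE cells. The summed mesenchymal markers were at 4651 and 6362 CPM, but 3 of the 6 were called lower (VIM, FN1 and CDH2) and 1 higher (SPARC, from 439 to 3447 CPM), with a median log2 fold change of -0.45. Their part in the keratin changes was not tested.

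The CE change differed between the lines for 5 members, where 12.2% of the genes tested were called. The change in BT549 minus that in MDAMB468 was 4.23 (0.14, adjusted p = 3.76e-06 in edgeR) for KRT8, 2.28 (0.19, adjusted p = 0.000333) for KRT19 and 2.12 (0.17, adjusted p = 0.000295) for KRT18. These 3 were higher in CE cells of both lines and more so in BT549, except that the rise of KRT19 in MDAMB468 (0.21, standard error 0.10) did not pass the test (adjusted p = 0.344 in edgeR). For KRT81 the difference was -3.69 (0.22, adjusted p = 5.67e-05 in edgeR), with a rise in MDAMB468 and a fall in BT549, and for KRT7 it was -1.45 (0.14, adjusted p = 0.000589). For KRT14 it was -0.06 (adjusted p = 0.953 in edgeR), and this gene was called lower in CE cells of each line. The KRT14 change in BT549 rests on 1 to 25 counts (standard error 0.61), so this cannot show that the lines changed equally. With 1 CE term over the 4 pairs, KRT14 was the single member called (log2 fold change -3.50, adjusted p = 0.0272 in edgeR), where 0.117% of genes were, and it was not called when any 1 of the 4 pairs was left out or in the 2 control pairs alone.

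**Figure D4:**
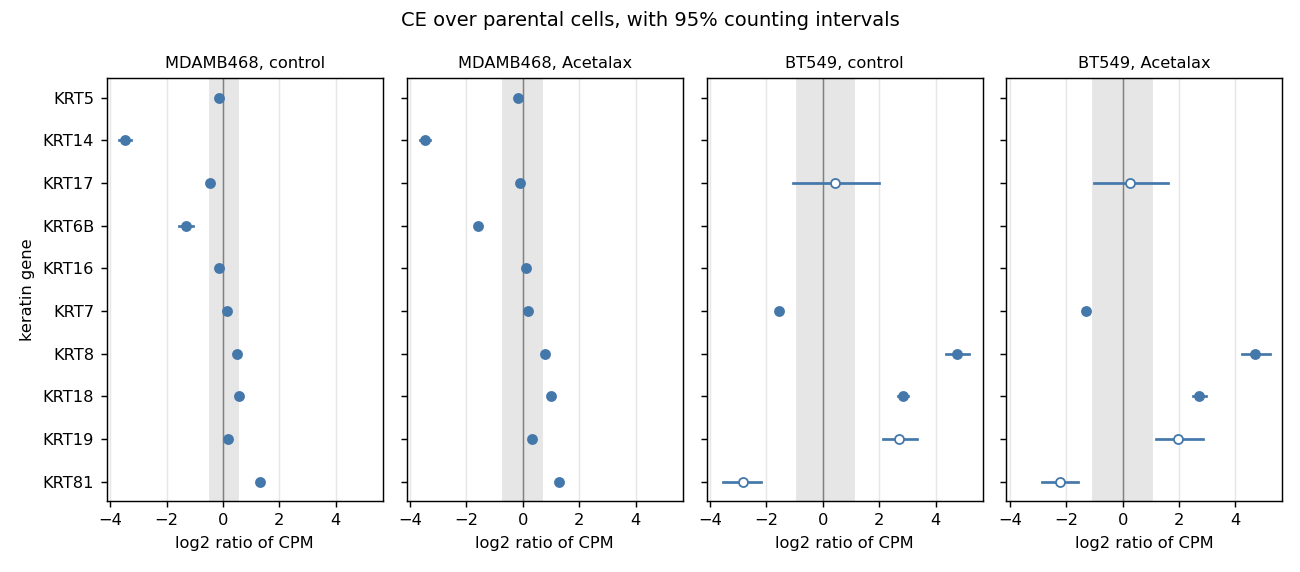
Log2 ratio of CPM in CE over parental cells for each keratin, in the control and the Acetalax pair of each line. Lines are 95% counting intervals, open points have fewer than 30 counts in 1 of the libraries, genes with 3 counts or fewer in either library are left out, and grey spans the 5th to the 95th percentile of 11135 genes. KRT8, KRT18 and KRT19 lie right of the grey span in both BT549 panels, and KRT7 and KRT81 lie left of it there. In both MDAMB468 panels KRT18 and KRT81 lie right of it, and KRT6B and KRT14 lie left of it.

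The genes whose pattern was most like each member were taken by Euclidean distance over 6 log2 ratios (4 for Acetalax and 2 for CE in control cells), among the same 11135 genes, for members with a ratio past 2-fold. For KRT17 they were TMEM156 (distance 0.41), ANKRD1 (0.78) and CCL22 (0.93), and for KRT6B they were TMEM156 (1.10), KRT17 (1.25) and ANKRD1 (1.37). For KRT8 they were MATN2 (0.49), KAL1 (0.55) and IFIH1 (0.65), for KRT18 DDX60L (0.67), HERC5 (0.75) and TMCO4 (0.82), and for KRT19 XAF1 (0.37), SSH3 (0.51) and NRN1 (0.53). For KRT14 they were EPB41L2 (0.95), SDC2 (1.03) and KLHL29 (1.37), for KRT81 MYH15 (0.55), FYN (0.63) and SIRPB1 (0.92), and for KRT7 ZMAT3 (0.40), IGFN1 (0.41) and PTPDC1 (0.42). KRT8 and KRT18, which pair in luminal cells, did not appear among each other's 3 nearest genes, though their 6 ratios had the same signs. They differed most in the CE ratio of BT549, at 4.314 for KRT8 and 2.755 for KRT18. KRT17 was the second nearest of KRT6B. KRT6B and KRT17 were at or near 0 counts in BT549, where the added 0.5 CPM holds their ratios near 0. Closeness to them thus rests largely on the MDAMB468 ratios. In edgeR, the log2 fold change for Acetalax in BT549 was 6.27 for ANKRD1 (adjusted p = 0.0239) and 0.50 for KRT17 (adjusted p = 0.434). The 6 ratios also share control libraries, so a distance is a description only.

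The other keratin genes, 44 in 2 lists of which 21 were tested, are given for comparison. In the line comparison 19 of the 21 were called lower in BT549 and none higher, where 29.5% of all genes were called lower. Those at or near 0 in BT549 passed the filter through MDAMB468 alone and had to differ, so this count supports nothing. KRT23 and KRT4 were at 205 to 529 and 90.9 to 153 CPM in MDAMB468 and at 0 or 1 count in BT549. KRT75, KRT38 and KRT40 were at 0 or 1 count in BT549 and below 17 CPM in MDAMB468, and KRT79 and KRT13 reached 0.610 and 0.476 CPM at most. KRT80 was not called between the lines (log2 fold change -0.39, standard error 0.35, adjusted p = 0.375 in edgeR). After Acetalax in MDAMB468, 5 of the 21 rose and 1 fell, where 6.64% of all genes were called. KRT75, a hair follicle keratin, had 39 and 800 counts in parental cells and 46 and 580 in CE cells, and KRT6A had a log2 fold change of 2.43 (0.18, adjusted p = 0.00331 in edgeR). KRT15, a basal type I keratin, fell in MDAMB468 (-0.67, adjusted p = 0.0326) and in BT549 (-0.94, adjusted p = 0.0217), as KRT19 did. In CE cells, 3 of the 21 were higher in MDAMB468, where 4.42% of all genes were called, and 1 in BT549, where 22.4% were, which was KRT15 (1.48, adjusted p = 0.000885 in edgeR).

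Genes that anchor keratin filaments are set here beside the 56.8% of all genes that were called between the lines and the 29.5% called lower in BT549. Of 16 genes of desmosomes and linkers, 14 were tested, and 9 were lower and 2 higher in BT549. Desmoplakin (DSP), which ties keratins to desmosomes, was at 728 to 1006 CPM in MDAMB468 and 0.299 to 1.25 CPM in BT549, EVPL was at 191 to 207 against 0.0460 to 0.0737 CPM, and PKP2 was at 57.1 to 113 against 0.198 to 2.56 CPM. Periplakin (PPL) had the opposite direction, with at most 1 count in MDAMB468 and 1.26 to 5.05 CPM in BT549. Of 7 hemidesmosome and epithelial laminin genes, 3 were lower and 2 higher in BT549, with ITGB4 and LAMB3 among the lower and COL17A1 among the higher. In both lists, genes at or near 0 in 1 line passed the filter through the other and had to differ, so these counts are descriptions. In MDAMB468 after Acetalax, LAMB3 (log2 fold change 2.27, adjusted p = 0.00618) and PLEC (1.40, adjusted p = 0.00463), a plakin that binds keratins, rose in edgeR, where 6.64% of all genes were called. In BT549 PLEC fell after Acetalax (-0.73, adjusted p = 0.0245 in edgeR), from 1049 to 690.2 CPM in parental and from 1451 to 685 CPM in CE cells, and 4 of the 14 desmosome and linker genes were called lower there and none higher, where 13.0% of all genes were called. Of 13 other intermediate filament genes, 8 were tested, and 4 were higher in BT549 and 1 lower, a share near that over all genes. VIM was at 1.77 to 8.94 CPM in MDAMB468, where it fell in CE cells (-1.71, adjusted p = 0.000694 in edgeR), and NES was the one lower in BT549. INA was among those higher in BT549 (1.59, adjusted p = 0.00847 in edgeR), and NEFH was not called (-3.58, adjusted p = 0.0509).

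A promoter sequence was at hand for KRT5, the basal keratin that rose in both MDAMB468 Acetalax pairs, and is shown for that reason. It spans 250 bases before to 50 after the gene's start, in RefSeq's GRCh38.p14 annotation, at chr12:52520345-52520644 on the minus strand, and the sequence is read 5′ to 3′ toward the gene.
KRT5: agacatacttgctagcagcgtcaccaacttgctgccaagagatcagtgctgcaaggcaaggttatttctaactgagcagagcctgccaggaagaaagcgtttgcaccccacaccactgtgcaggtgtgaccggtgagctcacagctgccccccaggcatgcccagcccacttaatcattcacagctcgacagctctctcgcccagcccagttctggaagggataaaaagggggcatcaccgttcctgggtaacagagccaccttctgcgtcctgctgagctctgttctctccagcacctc
Motifs were searched on both strands and do not occur in this window, so it has no capitals. The AP-1 letters TGANTCA were found in 7.71% of 35093 such windows, the Sp1 letters GGGCGG in 44.9%, the TATA-box letters TATAAA in 11.5% and the AP-2 letters GCCNNNGGC in 23.2%, and their absence says only that these letters are not in this window.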

How the data were processed

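The authors aligned 101-base read pairs of polyadenylated RNA (directional kit) to hg19 with STAR (2.7.11b in the submitters' processing notes) and deposited raw counts per gene, not normalized. The gene annotation and strand setting are not given in the sources used here. Identifiers listed more than 1 time (1392) were kept once. CPM and FPKM were computed from these counts with library totals and merged exons of a GENCODE annotation lifted to hg19. Log2 ratios add 0.5 CPM. Ratio intervals are exact binomial (Clopper-Pearson) and CPM intervals Wilson, both at 95%. Conditions came from the sample labels. Tests used edgeR 4.0.16 (R 4.3.3, glmQLFit, 2 or 3 residual degrees of freedom), standard errors are the fold change over the root of F, and DESeq2 1.42.0 was an alternative, as were other scalings, filters and left-out pairs. The code was tested on simulated counts. Named genes are the members, up to 4 genes per list with the largest difference between the lines, the nearest genes, and others chosen after their values were seen. Members and lists were chosen with earlier results of these data known. Pseudogene rows were summed per parent gene. The deposited table holds no fold changes by the authors. Some genes and sequences are not reported here.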

Additional observations from a re-analysis of the deposited data

Results flagged for a closer look

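The change with Acetalax differed between the lines for KRT8 and KRT18 by the test of the difference itself in edgeR. The log2 change in BT549 minus that in MDAMB468 was -0.72 for KRT8 and -0.98 for KRT18. Both fell in BT549, and their values of 0.25 and 0.36 in MDAMB468 did not pass the threshold. The call on the difference was lost in 3 of 5 alternatives for KRT8 (adjusted p up to 0.0664 in edgeR or DESeq2) and in 1 of 5 for KRT18 (0.0672). KRT8 and KRT18 share 525 exon bases on opposite strands, and the part of these bases in the result was not tested.

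The CE change differed between the lines for 5 keratins by the same kind of test. It was higher in BT549 by 4.23 for KRT8, 2.28 for KRT19 and 2.12 for KRT18 on the log2 scale. It was lower in BT549, with differences of -1.45 for KRT7 and -3.69 for KRT81. KRT81 rose in MDAMB468 CE cells and fell in BT549 CE cells, and each line has 1 CE population, so the line and the population cannot be told apart.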

How the results depend on the processing

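Of 41 member results that passed the threshold (10 members, 9 comparisons), 31 passed it under every alternative run, and none changed sign. The 10 that lost the call were the 2 Acetalax differences between the lines (KRT8 to an adjusted p of at most 0.0664, KRT18 to 0.0672), KRT5, KRT6B and KRT8 within a line, and the 4 calls of fits over 4 pairs. DESeq2 gave KRT6B an adjusted p of 0.744 for Acetalax and 0.972 for CE in MDAMB468, and the cause was not tested. Signs changed in results that were not called. For Acetalax over 4 backgrounds, KRT14 (-0.002) was 0.0043 with DESeq2's size factors, 0.012 with every gene with a count, 0.013 with a mean of 1 CPM and 0.34 in the CE pairs, and with a pair left out KRT14 ranged from -0.26 to 0.32, KRT8 from -0.23 to 0.12 and KRT18 from -0.34 to 0.086. KRT81 in BT549 was -0.063 on total counts. For CE over 4 pairs, KRT16 was 0.00737 on total counts, and with a pair left out KRT16 ranged from -0.13 to 0.11, KRT17 from -0.22 to 0.12 and KRT81 from -1.07 to 0.41.

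The number of genes called moved by over 1.5 times in these settings. Acetalax over 4 backgrounds called 984 genes, 3585 with every gene with a count, 87 with a mean of 1 CPM, 2913 in DESeq2, 0 in the parental and 0 in the CE pairs alone (1710 and 2311 at an unadjusted p under 0.05 in edgeR), and 0 to 554 with a pair left out. CE over 4 pairs called 23, 446 with every gene with a count, 1010 in DESeq2, 0 in the control pairs (610 unadjusted) and 0 to 10 with a pair left out. With every gene with a count, Acetalax called 2945 in MDAMB468 and 4181 in BT549, the difference between the lines 1632, and CE in MDAMB468 1817. The Acetalax difference called 44 with a mean of 1 CPM and 941 in DESeq2, against 351. Higher and lower calls split as 536 and 448 for Acetalax over 4 backgrounds (373 and 685 on total counts), 833 and 474 in MDAMB468 (751 and 653), 1127 and 1431 in BT549 (847 and 2273), 2427 and 1983 for CE in BT549 (2049 and 2578) and 1438 and 966 for its difference (1199 and 1352). Of 51 member ratios, 14 were at least 1 in size, 11 on the study's log2(FPKM + 1) scale. With the longest transcript, the type I to type II ratio of MDAMB468 parental control cells was 1.10, that of CE control cells crossed 1 (1.15 to 0.969), and those of the BT549 parental libraries were 0.0957 and 0.102 against 0.179 and 0.198. No pairing by replicate was possible because each condition has 1 library, and the fits pair libraries by condition or background instead. Low counts limit what can be said of KRT5, KRT6B, KRT14, KRT16 and KRT17 in BT549, where they had 25 counts or fewer.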

Other observations

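Genes of squamous differentiation (15 listed, 13 tested) had 12 called higher in MDAMB468, where 29.5% of all genes were. Most were at or near 0 counts in BT549 and passed the filter through MDAMB468 alone, so this count is a description. Among them were KLK5 at 795 to 1193 CPM, S100A9 at 613 to 890.1 CPM, LCN2 at 93.9 to 117 CPM and S100A7 at 96.5 to 291 CPM. In MDAMB468 CE cells 6 of the 13 were higher and 1 lower than in parental cells, where 4.42% of all genes were called. SPRR3 had 1 and 1 counts in parental and 27 and 42 in CE cells, FLG had 1 and 6 against 39 and 50, and S100A7 fell by 1.22. TP63, a regulator of squamous epithelium, was at 0.802 and 0.288 CPM in parental and 6.91 and 2.38 CPM in CE cells of MDAMB468, in control and Acetalax libraries, and its log2 fold change for CE was 3.03.

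Of 18 factors linked to keratin transcription, 11 were lower and 5 higher in BT549, where 29.5% of all genes were called lower and 56.8% in either direction. Factors at or near 0 in 1 line passed the filter through the other and had to differ, so this count is a description. ELF3 was at 105 to 299 CPM and OVOL2 at 6.48 to 11.8 CPM in MDAMB468 and both were below 1 CPM in BT549, while ZEB2 and SNAI2 were at 0 counts in MDAMB468 and at 27.4 to 44.007 and 14.8 to 43.2 CPM in BT549. After Acetalax, 5 of the 18 fell in MDAMB468 (TP63, GRHL3, ELF3, EHF and FOXA1) and none rose, where 6.64% of all genes were called. In BT549 KLF4 and KLF5 rose and 4 fell, where 13.0% were called. Markers of other cell types were low in both lines. The 5 leukocyte markers summed to 6.43 to 47.2 CPM in MDAMB468, nearly all of it CD14, and to 1.44 to 2.97 CPM in BT549, and 4 endothelial and adipocyte markers summed to 9.42 CPM at most. ESR1 was at 3.50 to 5.15 CPM in MDAMB468, and ERBB2 was at 44.5 to 95.2 CPM there and at 41.2 to 89.0 CPM in BT549.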
